A study of Mus musculus with 12 samples.

Results

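De novo lipogenesis is the making of new fatty acids from carbohydrate carbon. Its main enzymes and 3 genes known for controlling or accompanying it were followed here in mouse liver and liver tumors of 2 genotypes. The set holds 10 genes, taken as every row of the expression tables whose name field contains Acly, Acaca, Acacb, Fasn, Elovl6, Scd1, Me1, Mlxipl, Thrsp or Pnpla3. All 10 were found, on 11 of the 24553 rows, because Scd1 has 2 rows. The row of Scd1 with the higher mean is used as its value, and the other row is given beside it. All 10 genes also passed the filter for testing, an FPKM (fragments mapped to a transcript, scaled by its length and by the size of the library) of at least 1 in at least 3 of the 12 libraries. In all, 11671 rows passed it.

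The libraries were made from poly(A)-selected RNA of male mice with or without a knockout of Setd2, the gene of a histone H3 lysine 36 methyltransferase. They form 4 groups of 3. WT liver and KO liver are normal tissue of untreated mice aged 8 months, wild type and Setd2 knockout. WT tumor and KO tumor are liver tumors of the same genotypes at 8 months, after 1 intraperitoneal dose of diethylnitrosamine (DEN), a liver carcinogen, at 25 mg/kg when the mice were 2 weeks old. The sample titles write the knockout as cKO, and the labels do not say which exons or which cells were targeted or what drove the deletion. They do not state that each library came from a separate animal, so a p-value here reflects the spread among these libraries, which may be technical. The hour of collection and any fasting are not given either.

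As background, ATP citrate lyase (Acly) cuts citrate exported from mitochondria into acetyl-CoA, and acetyl-CoA carboxylase (Acaca, Acacb) turns acetyl-CoA into malonyl-CoA. Fatty acid synthase (Fasn) builds palmitate from malonyl-CoA with NADPH, part of which malic enzyme (Me1) supplies. Elovl6 then lengthens the chain and Scd1 places a double bond in it. In liver these genes are switched on by feeding: insulin acts through SREBP-1c, encoded by Srebf1, and glucose through ChREBP, encoded by Mlxipl, and their messenger RNAs are known to fall in fasting.

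The deposited tables hold FPKM and no counts, so the depth of each library is unknown. The FPKM sums of the libraries ran from 423498 to 719538, and 10233 to 11620 rows reached an FPKM of 1. Setd2 was measured at 3.84 to 4.84 FPKM in WT liver against 1.32 to 1.93 in KO liver, and at 3.61 to 4.402 in WT tumors against 1.90 to 3.14 in KO tumors. The groups of each pair did not overlap, and the value covers the whole gene rather than the deleted part. Of the 14 hepatocyte markers, Alb was listed at 0 in 11 of the 12 libraries, and Trf and Ahsg were listed at 0 in WT tumor replicate 1. The 3 were left out of the marker sum after their values were seen. The other 11 summed to 25934 to 60773 FPKM, so hepatocyte transcripts were abundant in every library.

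The 10 genes were high in the same libraries and low in the same libraries. KO liver replicate 3 held the highest value of all 12 libraries for 9 of the 10 genes. The exception was Pnpla3, which peaked in WT tumor replicate 2. At the other end, KO tumor replicate 1 held the lowest value of all 12 libraries for 7 genes, and the lowest of its own group for 9. Within KO liver the order was the same for all 10 genes: replicate 3 highest, replicate 1 next and replicate 2 lowest. On the log2(FPKM + 1) scale, the median of the 10 genes stood above the WT liver mean by 0.85 in KO liver replicate 1 and by 2.04 in replicate 3, and at -0.55 in replicate 2.

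**Figure D1:**
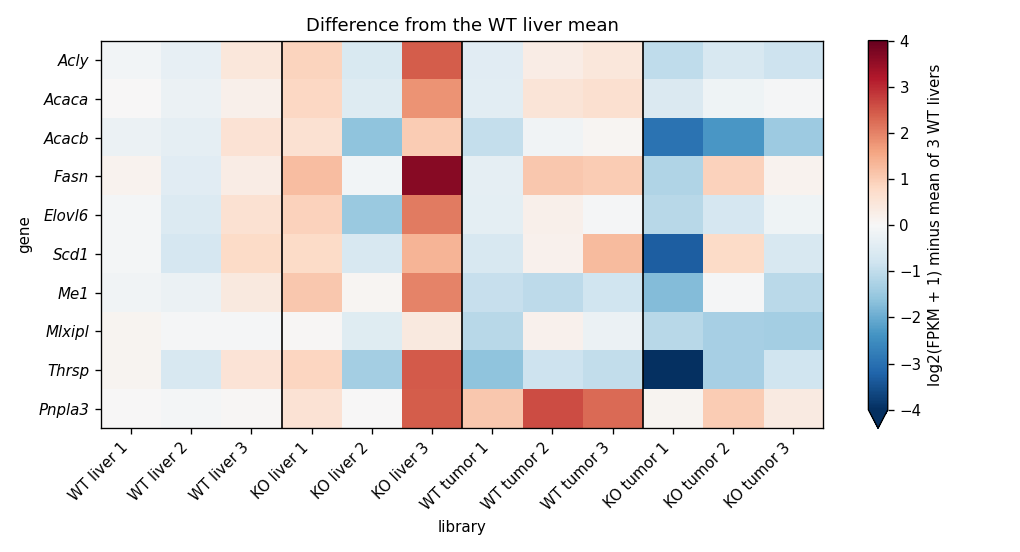
Difference of each gene (rows) in each library (columns) from the mean of the 3 WT livers, on the log2(FPKM + 1) scale given by the colour bar. KO liver replicate 3 is above the WT liver mean in all 10 genes, and KO liver replicate 2 is below it in 8.

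The spread within KO liver was the widest of the 4 groups. The median SD of the 10 genes on the log2(FPKM + 1) scale was 1.34 there, against 0.17 over all 11671 rows. It was 0.40 in WT liver, 0.56 in WT tumors and 0.61 in KO tumors, where all rows had medians of 0.16, 0.19 and 0.31. Each group thus showed more spread in these genes than in the median row, and this spread sets the error of every comparison. Pearson's r over the 12 libraries was above 0 in all 45 pairs of the 10 genes, with a median of 0.71 and a range from 0.12 to 0.96. With the group means removed, the median was 0.80 and again all 45 pairs were above 0. These are descriptions over libraries that share their depth and their mouse or tumor, and the genes are not independent of one another.

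The promoters of 4 members are shown because these genes mark the ends of that range. Pnpla3, Fasn and Thrsp had the highest ratio of KO liver replicate 3 to the WT liver mean among the members with a window, 53.3, 12.5 and 5.24, and Mlxipl had the lowest, 1.32. Each window is RefSeq sequence of build GRCm38.p6, from 250 bases before the start site to 50 after it, written 5′ to 3′ on the gene's strand. Capitals mark CCAAT on either strand, the box that binds the factor NF-Y, and in Mlxipl also CACGTG, an E-box, a site of the kind bound by SREBP and ChREBP families. The windows are chr15:84167566-84167865 (plus strand) for Pnpla3, chr11:120824498-120824797 (minus strand) for Fasn, chr7:97417501-97417800 (minus strand) for Thrsp and chr5:135089640-135089939 (plus strand) for Mlxipl.
Pnpla3: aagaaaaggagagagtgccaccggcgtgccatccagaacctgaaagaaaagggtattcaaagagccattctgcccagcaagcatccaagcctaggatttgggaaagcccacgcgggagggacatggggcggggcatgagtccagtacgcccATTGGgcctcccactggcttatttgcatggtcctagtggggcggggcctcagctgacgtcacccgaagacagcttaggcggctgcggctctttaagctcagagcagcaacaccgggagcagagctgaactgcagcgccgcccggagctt
Fasn: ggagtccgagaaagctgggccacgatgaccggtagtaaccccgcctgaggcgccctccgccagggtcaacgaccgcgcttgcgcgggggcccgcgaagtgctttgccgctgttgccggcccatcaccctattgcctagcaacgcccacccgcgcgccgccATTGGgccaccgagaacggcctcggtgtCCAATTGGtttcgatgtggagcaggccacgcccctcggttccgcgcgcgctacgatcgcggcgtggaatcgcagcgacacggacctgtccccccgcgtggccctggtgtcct
Thrsp: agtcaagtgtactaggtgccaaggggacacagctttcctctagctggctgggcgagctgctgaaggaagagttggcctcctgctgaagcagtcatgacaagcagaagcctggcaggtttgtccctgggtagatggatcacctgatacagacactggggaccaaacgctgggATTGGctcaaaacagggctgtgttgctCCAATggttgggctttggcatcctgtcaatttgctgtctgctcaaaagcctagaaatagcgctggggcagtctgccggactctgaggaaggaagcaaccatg
Mlxipl: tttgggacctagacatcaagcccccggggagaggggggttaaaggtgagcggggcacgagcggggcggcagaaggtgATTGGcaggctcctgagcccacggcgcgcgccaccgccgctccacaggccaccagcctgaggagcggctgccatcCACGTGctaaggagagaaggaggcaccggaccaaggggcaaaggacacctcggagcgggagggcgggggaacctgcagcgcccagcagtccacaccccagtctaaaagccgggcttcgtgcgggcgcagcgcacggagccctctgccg

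The Fasn window held 3 CCAAT matches, starting at -90, -62 and -59 from the start site, the latter pair overlapping. Thrsp held 2, at -79 and -52, Pnpla3 held 1 at -99 and Mlxipl held 1 at -173, with its E-box at -98. Windows were found for 9 of the 10 members, all but Scd1, and CCAAT occurred in 7 of those 9 (Acacb, Acly, Fasn, Me1, Mlxipl, Pnpla3 and Thrsp). Over all 27025 genes with a window, 41.1% held it. CACGTG occurred in 1 of the 9 members, Mlxipl, and in 8.09% of all genes. The sterol response element searched as TCACNCCAC occurred in a second Mlxipl window, and in 1.44% of all genes. These matches describe the letters in the windows and are not evidence of binding.

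Acly opens the pathway by making cytosolic acetyl-CoA. It lies on chromosome 11, from 100476353 to 100528000 (GRCm38). Its FPKM was 103, 89.2 and 152 in WT liver (replicates 1, 2 and 3) and 209, 73.5 and 601 in KO liver. The WT tumors had 81.9, 139 and 152, and the KO tumors 54.3, 71.0 and 62.4. KO liver replicates 1 and 3 were above all WT livers and replicate 2 below all of them, while the 3 KO tumors lay below the 3 WT tumors with no overlap.

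Acaca and Acacb encode the acetyl-CoA carboxylases: the product of Acaca supplies fatty acid synthesis in the cytosol, and that of Acacb sits at the outer mitochondrial membrane, where its malonyl-CoA restrains fatty acid import. Acaca was at 13.9, 11.5 and 15.7 FPKM in WT liver, 25.1, 9.31 and 49.7 in KO liver, 10.01, 19.9 and 21.8 in WT tumors, and 8.86, 12.01 and 13.1 in KO tumors. Its groups overlapped in each of the 4 pairwise comparisons. Acacb was at 12.1, 10.997 and 21.8 FPKM in WT liver, 22.2, 3.98 and 30.1 in KO liver, 6.84, 12.9 and 15.2 in WT tumors, and 0.968, 2.07 and 4.62 in KO tumors. Its KO tumors were all below its WT tumors, with means of 2.55 ± 1.87 and 11.6 ± 4.29 (SD, n = 3 each). Acacb lies on chromosome 5 from 114146535 to 114250761, and Acaca on chromosome 11 from 84129672 to 84401651.

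Fasn, on chromosome 11 from 120805846 to 120824547, encodes the synthase itself. Its FPKM was 63.2, 41.1 and 70.6 in WT liver and 135, 52.1 and 728 in KO liver. It was 44.5, 120.1 and 117 in WT tumors and 24.2, 108 and 62.9 in KO tumors. The single KO liver at 728 was 13.96 times the lowest KO liver, which lay within the WT liver range. The KO liver mean of 305 ± 369 (SD, n = 3) thus rested mostly on 1 library, though the KO liver at 135 was also above all WT livers.

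Elovl6 (chromosome 3, 129532355 to 129638495) extends palmitate to stearate. It was at 17.1, 12.4 and 28.8 FPKM in WT liver, 35.6, 5.95 and 81.1 in KO liver, 13.7, 21.1 and 17.9 in WT tumors, and 8.01, 11.2 and 16.2 in KO tumors. KO liver contained both the highest and the lowest Elovl6 value of the 12 libraries. They differed 13.6 times.

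Scd1 (chromosome 19, 44394455 to 44407879) makes oleate and palmitoleate and was among the most abundant of the set in every library. Its main row read 785, 528 and 1408 FPKM in WT liver, 1419.6, 538 and 2131 in KO liver, 536, 947 and 1994 in WT tumors, and 84.2, 1413 and 541 in KO tumors. All 4 groups overlapped, and KO tumor replicate 1 lay below every other library. The second row of Scd1 behaved differently. It read 24.6, 43.8 and 10.3 FPKM in WT liver and 321, 131 and 576 in KO liver, so these groups did not overlap. The WT tumors had 58.0, 169 and 216, and the KO tumors 2.70, 125 and 151. As a share of the main row it was 0.733 to 8.30% in WT liver and 22.6 to 27.0% in KO liver, then 10.8 to 17.8% in WT tumors and 3.20 to 27.9% in KO tumors. The tables do not say which transcript or locus the second row stands for, so it is not read here as the level of the gene.

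Me1 (chromosome 9, 86581371 to 86695953) encodes the cytosolic malic enzyme, a source of NADPH. It was at 52.6, 49.2 and 76.6 FPKM in WT liver, 124, 61.4 and 234 in KO liver, 30.6, 27.6 and 33.3 in WT tumors, and 16.8, 55.9 and 27.0 in KO tumors. Every WT tumor was below every WT liver, and every KO tumor was below every KO liver. The 2 liver groups overlapped.

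Mlxipl (chromosome 5, 135089890 to 135138382) encodes ChREBP, the glucose-responsive transcription factor of the pathway. It was at 79.0, 71.6 and 70.8 FPKM in WT liver, 75.4, 52.0 and 97.6 in KO liver, 33.96, 83.0 and 62.2 in WT tumors, and 33.8, 29.1 and 28.1 in KO tumors. Its highest value over its lowest was 3.47, the narrowest range of the 10 genes. The KO tumors formed a tight group of 30.3 ± 3.05 (SD, n = 3), below all other libraries, though the highest KO tumor (33.8) nearly met the lowest WT tumor (33.96).

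Thrsp (chromosome 7, 97412938 to 97417730) encodes Spot 14, a small protein that follows the lipogenic state of liver and responds to thyroid hormone and carbohydrate. It was at 592, 357 and 805 FPKM in WT liver, 1004, 215 and 3065 in KO liver, 179, 315 and 277 in WT tumors, and 15.9, 218 and 321 in KO tumors. The value of 3065 was the highest of any member in any library, and 193 times the lowest Thrsp value. WT tumors lay below WT livers without overlap.

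Pnpla3 (chromosome 15, 84167837 to 84187236) encodes a lipid droplet protein related to triglyceride lipases that is known to be induced by SREBP-1c. Its row also carries the name Mir6392, a microRNA gene inside the span of Pnpla3, so the row cannot be assigned to Pnpla3 alone. It was at 0.113, 0.0383 and 0.121 FPKM in WT liver and 0.618, 0.0924 and 4.82 in KO liver. It was at 1.33, 5.69 and 4.26 in WT tumors and 0.177, 1.18 and 0.387 in KO tumors. All WT livers were below 1 FPKM and all WT tumors above it. The row passed the filter through the 5 libraries that reached 1, of which WT tumors gave 3, so no test of it that involves WT tumors is independent of the filter. Its changes also depend on the pseudocount, since most values are near or below 1.

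**Figure D2:**
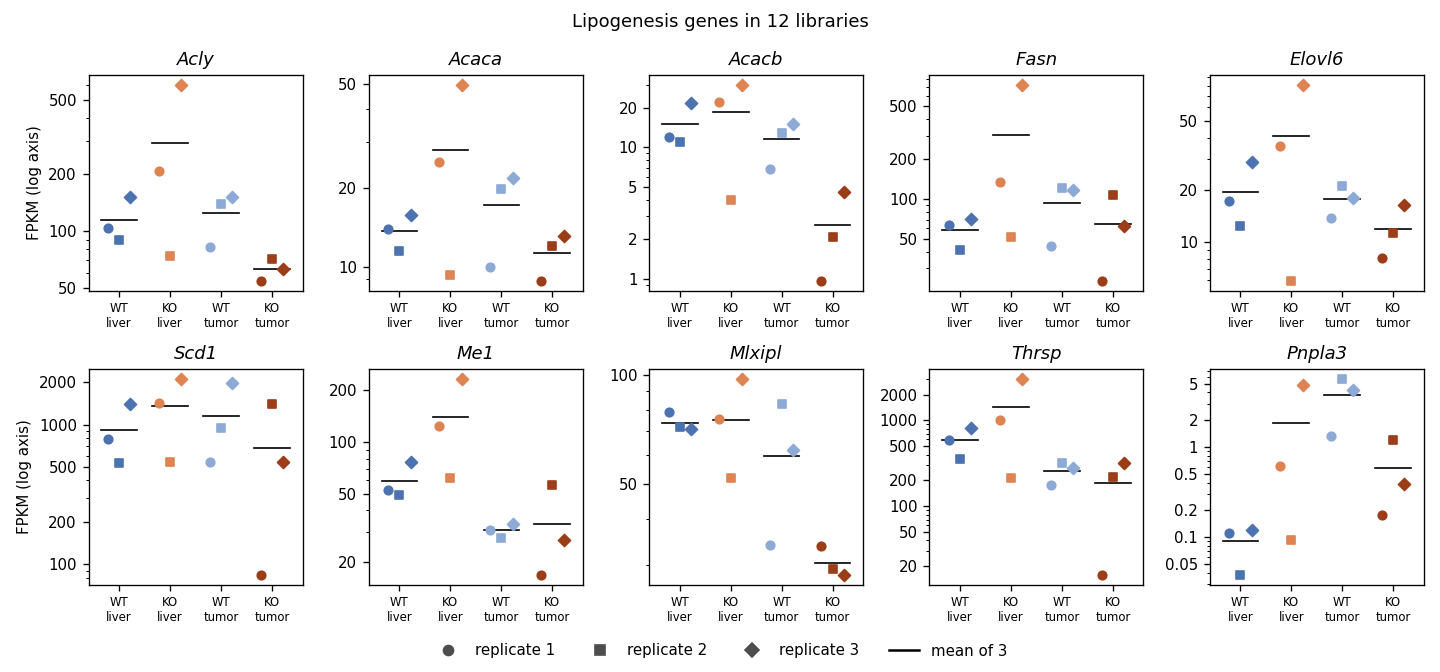
FPKM (log axis) of the members in the 4 groups, with 1 point per library and a bar at the group mean. For Fasn, KO liver spans 52.1 to 728 FPKM, while Mlxipl stays between 28.1 and 97.6 over the 12 libraries.

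By group mean, KO liver came first for 9 of the 10 genes and WT tumor for Pnpla3. KO tumor came last for 7, WT liver for Fasn and Pnpla3, and WT tumor for Me1. This order was not firm. KO liver overlapped WT liver for all 10 genes, so the top place of KO liver was not separated from WT liver beyond the replicates for any of them.

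The first comparison asked whether loss of Setd2 was accompanied by a change of lipogenic transcripts in normal liver. No member was called: 0 of 10 passed an adjusted p below 0.05 in limma, with Benjamini-Hochberg adjustment over 11671 rows, and 0 of 10 had an unadjusted p below 0.05. Over all rows 18.1% were called, 37.6% had an unadjusted p below 0.05 and 42.6% had groups that did not overlap, against 0 of 10 members. The log2 change was above 0 for 9 of the 10, with a median of 0.68 where the median of all rows was 0.03. Fasn was at 1.59 ± 0.85 (SE; limma, adjusted p = 0.212), Me1 at 1.05 ± 0.45 (adjusted p = 0.134) and Pnpla3 at 0.997 ± 0.549 (adjusted p = 0.225). With a pseudocount of 0.1 Pnpla3 was at 2.24 and with 5 at 0.36. Acly stood at 0.90 ± 0.68 (limma, adjusted p = 0.363) and Mlxipl at -0.02 ± 0.22 (adjusted p = 0.953). Acacb was at 0.00 ± 0.65, and its sign changed with the processing. The 11 hepatocyte markers summed to 54362 to 57766 FPKM in KO liver and 55546 to 60773 in WT liver, and 8 stellate and fibroblast markers to 75.0 to 126 and 44.7 to 70.1. The stellate and fibroblast sum was mostly Dcn, at 57.7 to 99.2 FPKM in KO liver and at most 47.8 in WT liver. All 8 of its markers had estimates above 0, but only 3 were higher without overlap and 1 was called. The part of shifts in these marker sums in the lipogenic values was not tested.

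The 10 genes gave different answers in different KO livers. Without KO liver replicate 3 the median change fell to 0.11, with 6 of 10 above 0. Without KO liver replicate 2 it was 1.499, with all 10 above 0, and Me1 was then called (log2 change 1.53, limma adjusted p = 0.0453). KO liver replicate 3 exceeded replicate 2 by 1.88 times for Mlxipl, 3.81 for Me1, 3.96 for Scd1, 5.34 for Acaca, 7.56 for Acacb, 8.18 for Acly, 13.6 for Elovl6, 13.96 for Fasn, 14.3 for Thrsp and 52.2 for Pnpla3. The range of the KO livers was thus wider than the difference of KO from WT for every member. The second Scd1 row was called in this comparison, at a log2 change of 3.63 ± 0.64 (limma, adjusted p = 0.0170), and it lost the call in 4 of its 19 alternatives, among them the fit without WT liver replicate 3 (adjusted p = 0.0582, limma).

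**Figure D3:**
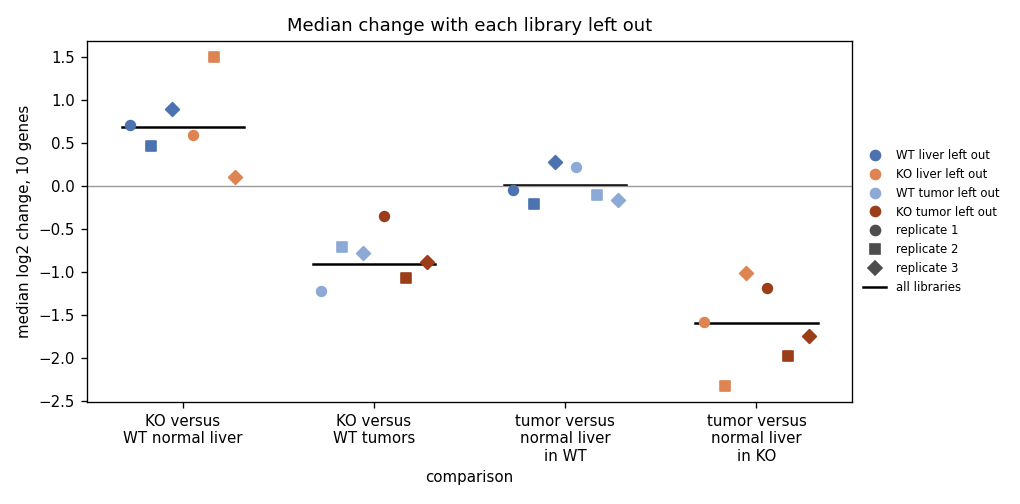
Median log2 change of the 10 genes in each pairwise comparison with all libraries and with each library left out in turn. In KO versus WT normal liver the median runs from 0.11 without KO liver replicate 3 to 1.499 without KO liver replicate 2.

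In tumors the estimates pointed the other way. All 10 members were below 0 in KO relative to WT tumors, with a median log2 change of -0.90, where the median of all rows was 0.02. None was called, at a background of 0.0771% called over all rows. Before adjustment, 4 of the 10 (Acacb, Pnpla3, Acly and Mlxipl) had p below 0.05, all lower, where 6.73% of all rows had it in that direction. The same 4 genes were lower in KO tumors without overlap, as were 10.1% of all rows. The gap was narrow for Mlxipl, from 33.8 in the highest KO tumor to 33.96 FPKM in the lowest WT tumor. For Pnpla3 it ran from 1.18 to 1.33 FPKM. Pnpla3 had passed the filter through the WT tumors, and without it 3 of 9 members met either rule, with a median change of -0.87. Acacb was at -1.90 ± 0.43 (limma, adjusted p = 0.109), Pnpla3 at -1.51 ± 0.43 (adjusted p = 0.152; -2.57 with a pseudocount of 0.1 and -0.62 with 5), Acly at -0.94 ± 0.28 (adjusted p = 0.162) and Mlxipl at -0.87 ± 0.32 (adjusted p = 0.237). Scd1, Thrsp and Fasn had estimates of -1.32 ± 1.02, -1.24 ± 1.05 and -0.63 ± 0.61, whose groups overlapped. Elovl6 was at -0.57 ± 0.28 and Acaca at -0.51 ± 0.31, and Me1 at -0.04 ± 0.40 showed no direction that held, turning positive with libraries rescaled to TPM (0.070).

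KO tumor replicate 1 carried a large part of the median and of the Thrsp and Scd1 estimates. Without it the median was -0.35, with 8 of 10 below 0, Thrsp turned to 0.082 and Scd1 moved to -0.20. Acacb stayed at -1.54 without it. For Mlxipl, KO tumor replicate 1 was the highest KO tumor, so it did not lower that estimate. Acacb was called without KO tumor replicate 3 (log2 change -2.29, limma adjusted p = 0.0475) and when libraries were weighted by quality (-2.13, adjusted p = 0.0469). With the libraries rescaled to TPM, the median of all rows moved to 0.12 and that of the 10 genes to -0.79.

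The 2 tumor groups also differed in the RNA of other cells. The 11 hepatocyte markers summed to 25934 to 47269 FPKM in KO tumors and to 52775 to 59064 in WT tumors. The sum of 8 stellate and fibroblast markers was 180.0 to 272 FPKM in KO tumors against 66.3 to 77.6 in WT tumors, and that of 10 macrophage markers 409 to 607 against 123 to 394. The macrophage markers did not all follow their sum: 8 had estimates above 0 and 2 below, and only 3 were higher without overlap. Clec4f at 2.55 to 89.7 FPKM and Vsig4 at 2.05 to 41.2 in KO tumors spanned their whole WT tumor ranges. The sum of 7 endothelial markers overlapped, at 55.4 to 111 in KO tumors and 63.6 to 114 in WT tumors. The 5 neutrophil markers summed to 22.2 to 57.3 against 8.90 to 10.002. The sum of 7 cholangiocyte markers, 294 to 3555 in KO tumors and 105 to 681 in WT tumors, was mostly Spp1 (254 to 3505 and 60.5 to 632), which other cells are also known to express. Of the others, Krt19 was at 1.01 to 5.13 in KO tumors and 0.168 to 0.555 in WT tumors, and Cdh1 at 19.0 to 40.1 and 30.6 to 34.99. In bulk tissue, fewer hepatocytes and less RNA per hepatocyte cannot be told apart, and the part of these shifts in the lower lipogenic values was not tested. Adipocytes also express this pathway. Of their 8 markers, Lep was at 0 in all 12 libraries, Adipoq at 0 in 11 and Plin1 at most 0.0387 FPKM. Their sum was higher in KO tumors, 78.2 to 142 FPKM against 34.6 to 63.8 in WT tumors, mostly as Fabp4 (71.3 to 128 in KO tumors), which macrophages and endothelium are also known to express.

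Between WT tumor and WT liver the pathway did not move as one block. Me1 and Pnpla3 were called, at a background of 17% called. Pnpla3 had passed the filter through the WT tumors, the group in which it is high, so counts are given over the other 9 members. Of these, 1 was called, lower, against 8.96% of all rows called lower, and 2 did not overlap between the groups, against 42.3% of all rows. Me1 fell by 0.92 ± 0.18 on the log2 scale (limma, adjusted p = 0.0199). Pnpla3 was higher by 1.99 ± 0.36 on the log2(FPKM + 1) scale (limma, adjusted p = 0.0153), 4.15 with a pseudocount of 0.1 and 0.75 with 5, from a WT liver mean of 0.0904 to a WT tumor mean of 3.76 FPKM. Thrsp was lower without overlap at -1.14 ± 0.34 but missed the threshold (limma, adjusted p = 0.0576). The other 7 lay between -0.39 and 0.58, and 4 of the 9 were above 0, with a median of -0.08. Fasn was at 0.58 ± 0.40, Mlxipl at -0.39 ± 0.30, Acacb at -0.34 ± 0.34, Scd1 at 0.26 ± 0.53, Acaca at 0.25 ± 0.28, Acly at 0.10 ± 0.29 and Elovl6 at -0.08 ± 0.30. Me1 lost its call in 4 of 19 alternatives, among them the fit without WT tumor replicate 2 (adjusted p = 0.0608) and 1 fit of all 12 libraries (adjusted p = 0.226). Pnpla3 lost it in 3, among them the fits without WT liver replicate 2 (adjusted p = 0.0553) and without WT liver replicate 3 (adjusted p = 0.0649). Rescaling to TPM moved the median of all rows from -0.04 to 0.23, and Me1 under it was at -0.62.

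In Setd2 knockout mice, tumor was below liver in all 10 members, with a median of -1.59. Mlxipl was the 1 member called, at a background of 14.3% called and 5.17% called lower: it fell by 1.24 ± 0.26 on the log2 scale (limma, adjusted p = 0.0253). It lost the call in 7 of 19 alternatives, among them the fits without any 1 of the 3 KO livers and without KO tumor replicate 1 or 2, with adjusted p from 0.0504 to 0.0899. Me1 at -2.00 ± 0.57 (adjusted p = 0.0576) and Acly at -1.74 ± 0.68 (adjusted p = 0.121) were lower without overlap, so 3 of 10 were separated, where 19.8% of all rows were lower without overlap. Before adjustment 4 of 10 had p below 0.05, all lower, against 15.7% of all rows. Thrsp was at -3.04 ± 1.31, with overlapping groups (adjusted p = 0.152). Acacb was at -2.24 ± 0.71 (limma, adjusted p = 0.0737), and the rest ran from -1.64 for Fasn to -0.51 for Pnpla3. This comparison holds the 2 groups with the widest spread in these genes, and without KO liver replicate 3 its median was -1.01, with 9 of 10 below 0.

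**Figure D4:**
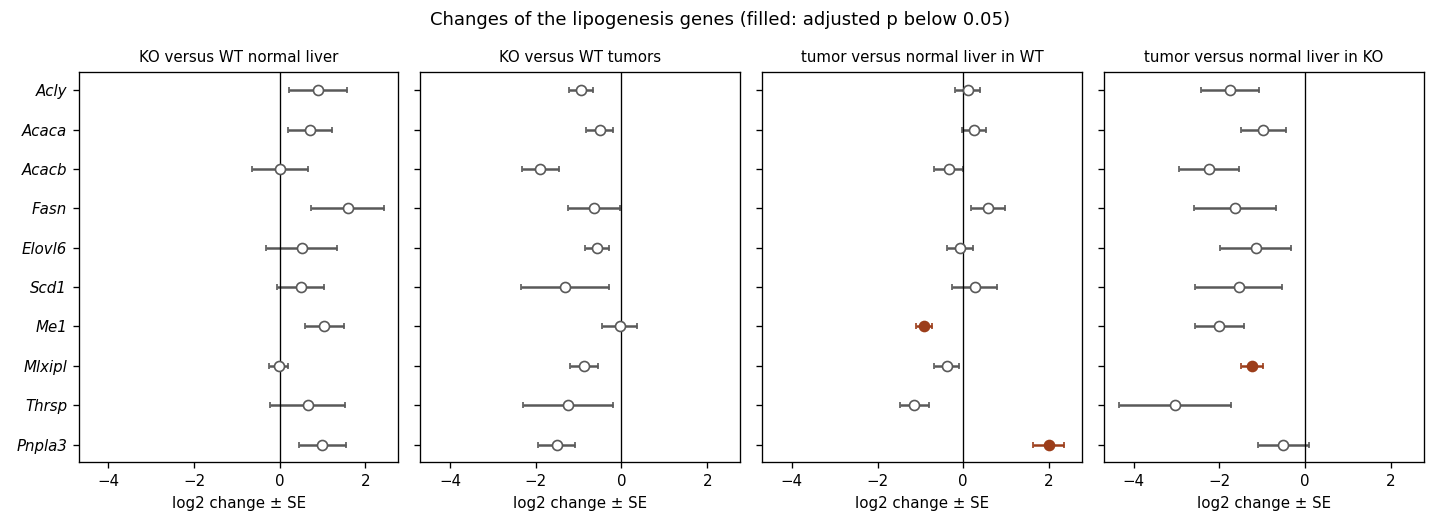
Log2 change and standard error of each gene in the 4 pairwise comparisons, with filled points for an adjusted p below 0.05. Filled are Pnpla3 and Me1 in tumor versus normal liver in WT, and Mlxipl in tumor versus normal liver in KO.

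The interaction asked whether the effect of the knockout in tumors differed from its effect in normal liver. All 10 members had a more negative effect in tumors, where 48.2% of all rows did, and the median difference was -1.83 on the log2 scale. No member was called, at a background of 2.08%. Before adjustment, 2 of the 10 had p below 0.05, both lower, where 9.69% of all rows were lower at that level. These were Acly and Pnpla3, the latter at -2.51 (limma, adjusted p = 0.1003; -4.81 with a pseudocount of 0.1 and -0.98 with 5). Without Pnpla3, 1 of 9 had p below 0.05 and the median was -1.81. Fasn was at -2.22 ± 1.17 (limma, adjusted p = 0.286), Acacb at -1.90 ± 0.88 (adjusted p = 0.229) and Mlxipl at -0.85 (adjusted p = 0.260). The median was -1.04 without KO liver replicate 3 and -0.996 without KO tumor replicate 1. Since the 10 genes vary together between libraries, their common sign is not 10 separate observations.

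Regulators of the pathway were measured in the same libraries. Srebf1, the SREBP-1 gene, was at 20.5, 16.8 and 11.1 FPKM in WT liver, 21.1, 39.6 and 117 in KO liver, 36.3, 31.5 and 40.8 in WT tumors, and 12.7, 44.1 and 39.3 in KO tumors. All 3 KO livers were above the WT livers, KO liver replicate 2 included, in which each lipogenic gene had the lowest value of its group. The test gave 1.51 ± 0.56 (limma, adjusted p = 0.0995) in liver and -0.34 ± 0.45 (adjusted p = 0.734) in tumors. In WT tumors relative to WT liver, Srebf1 rose by 1.15 ± 0.22 (limma, adjusted p = 0.0180), a call lost without WT liver replicate 2. The FPKM of Srebf1 does not separate SREBP-1a from SREBP-1c, which are made from the same gene.

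Insig1, a target of SREBP whose product holds SREBP in the endoplasmic reticulum, read 77.5, 55.9 and 62.2 FPKM in WT liver, 77.3, 109 and 183 in KO liver, 101, 133 and 139 in WT tumors, and 15.5, 31.1 and 43.8 in KO tumors. The KO tumors were below all other libraries. The change was 0.83 ± 0.30 (limma, adjusted p = 0.0909) in liver and -2.11 ± 0.37 (adjusted p = 0.0775) in tumors. Insig1 rose in WT tumors relative to WT liver by 0.92 ± 0.18 (limma, adjusted p = 0.0181), and fell in KO tumors relative to KO liver by 2.02 ± 0.44 (adjusted p = 0.0293). The first call was lost without WT liver replicate 2 or 3 or WT tumor replicate 2, and the other without any 1 of the KO livers or KO tumor replicate 1 or 2.

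Of 20 tested genes of the SREBP-1c, LXR and insulin axis, 5 were called in KO against WT liver, all lower, with a median of -0.05, beside 18.1% of all rows called. The 3 with the smallest p were Irs2, an insulin receptor substrate, at -1.49 ± 0.31 (limma, adjusted p = 0.0240), Rxra, the partner of LXR, at -0.69 ± 0.14 (adjusted p = 0.0244), and Foxo1, a factor that insulin restrains, at -0.81 ± 0.20 (adjusted p = 0.0371). The other 2 were Srebf2 at -0.57 and Akt2 at -0.50. Irs2 read 4.73, 3.39 and 9.75 FPKM in WT liver and 1.46, 1.08 and 1.37 in KO liver. Irs2 and Foxo1 lost the call without KO liver replicate 2 or 3, as did Rxra, and Rxra and Foxo1 also without any 1 of the WT livers. The LXR gene Nr1h3 was at 0.11 ± 0.10 (limma, adjusted p = 0.476). In KO against WT tumors 0 of the 20 were called, beside 0.0771% of all rows. An unadjusted p below 0.05 was found for 3, all lower, beside 6.73% of all rows in that direction: Insig1, Srebf2 at -0.83 ± 0.20 and Scap at -0.85 ± 0.26.

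Among 12 ChREBP partners and targets, 3 were called in KO against WT liver, 2 higher and 1 lower, with a median of 0.40, beside the same 18.1% of all rows. Mlx, the partner that ChREBP needs to bind DNA, rose by 0.66 ± 0.12 (limma, adjusted p = 0.0178), from 23.4, 20.4 and 23.9 FPKM to 32.8, 38.3 and 37.2. Khk, fructokinase, rose by 1.07 ± 0.26 (adjusted p = 0.0348) and Txnip fell by 1.14 ± 0.23 (adjusted p = 0.0234). Pklr, liver pyruvate kinase and a classic ChREBP target, read 105, 41.3 and 51.4 FPKM in WT liver and 158, 80.8 and 461 in KO liver, with 1.56 ± 0.62 (adjusted p = 0.116). As in the lipogenic members, replicate 3 was the highest KO liver and replicate 2 the lowest. In KO against WT tumors none of the 12 was called by limma, and their median was 0.20. In that comparison 2 had an unadjusted p below 0.05, both higher: Tkfc at 0.79 ± 0.21 and Mlx at 0.42 ± 0.16. The share of all rows that were higher at that level is not given here, so this count cannot be set against a background. In liver the call of Khk was lost without any 1 of the WT livers, that of Mlx without WT liver replicate 2 or 3 or KO liver replicate 3, and that of Txnip without WT liver replicate 1 or 2 or KO liver replicate 2 or 3.

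Of 12 genes that supply acetyl-CoA, citrate or NADPH, only G6pdx was called in KO against WT liver, beside 18.1% of all rows. This first enzyme of the pentose phosphate pathway, a source of NADPH, rose by 2.72 ± 0.30 (limma, adjusted p = 0.00675). It read 2.23, 2.86 and 2.24 FPKM in WT liver and 28.4, 12.5 and 28.0 in KO liver, with no overlap, and the call held in all 19 alternatives. In KO tumors it was at 31.0, 53.8 and 25.9 against 5.82, 16.3 and 11.8 in WT tumors (1.66 ± 0.41, adjusted p = 0.121). Slc25a1, which carries citrate out of mitochondria, was at 148, 159 and 157 FPKM in WT liver and 212, 160.1 and 259 in KO liver (0.42 ± 0.18, limma adjusted p = 0.133).

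Of 11 tested regulators of malonyl-CoA and lipogenesis, 1 was called in KO against WT liver, beside 18.1% of all rows. Mid1ip1, a Spot 14 relative that promotes assembly of acetyl-CoA carboxylase, rose by 1.81 ± 0.49 (limma, adjusted p = 0.0459), from 31.0, 12.01 and 10.4 FPKM to 43.4, 41.0 and 109.8. It lost the call in 9 of 19 alternatives, with adjusted p up to 0.148, among them the fits without WT liver replicate 2 or 3 or any 1 of the KO livers. In tumors it was at -0.54 ± 0.20 (adjusted p = 0.235).

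Genes that handle the acyl chain after synthesis had a median of -0.89 in KO against WT tumors, beside -0.90 for the members. Of 16 tested, 0 were called and 8 had an unadjusted p below 0.05, all lower, beside 6.73% of all rows. The 3 with the smallest p were Gpam, which starts glycerolipid synthesis, at -0.88 ± 0.16 (limma, adjusted p = 0.0793), and the acyl-CoA synthetases Acsl3, whose row also names Utp14b, at -1.77 ± 0.34 (adjusted p = 0.0844) and Acsl5 at -1.11 ± 0.23 (adjusted p = 0.0950). In KO against WT liver 2 were called higher (Agpat2 by 1.33 and Elovl1 by 0.76) and 2 lower (Acsl1 by 0.62 and Lpin2 by 1.02). The median was -0.13, and 18.1% of all rows were called. Agpat2 and Elovl1 lost the call without any 1 of the WT livers or KO liver replicate 2, and Acsl1 without WT liver replicate 3. Scd2, on a row that also names Scd3 and Mir5114, read 6.59, 3.13 and 10.8 FPKM in WT liver and 48.7, 57.7 and 74.4 in WT tumors, a rise of 3.07 ± 0.37 (limma, adjusted p = 0.00508), where Scd1 was at 0.26 ± 0.53.

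Genes known to rise in fasting were compared because the members respond to feeding. Of 11 tested, 1 was called in KO against WT liver, beside 18.1% of all rows. This was Cpt1a, the entry step of mitochondrial fatty acid oxidation, which fell by 1.16 ± 0.29 (limma, adjusted p = 0.0376). It was at 150.3, 145 and 147 FPKM in WT liver and 106, 59.9 and 43.9 in KO liver, and the call was lost without any 1 of the WT livers or KO liver replicate 2 or 3. Pck1, the gluconeogenic enzyme, named after its values were seen, was at 1389.8, 849.9 and 169 FPKM in KO liver, lowest in the replicate with the highest lipogenic values, and at 1015 to 1652 in WT liver. In KO tumors it was at 549, 89.6 and 1614. The lowest Pck1 value of the tumors was thus in KO tumor replicate 2, which held the highest of its group for 5 members. The highest Pck1 value of the tumors was in KO tumor replicate 3, which held the highest of its group for 4 members. KO tumor replicate 1, lowest of its group for 9 members, had a Pck1 value between them. The labels give no feeding state or time of day, and their part in the spread was not tested.

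**Figure D5:**
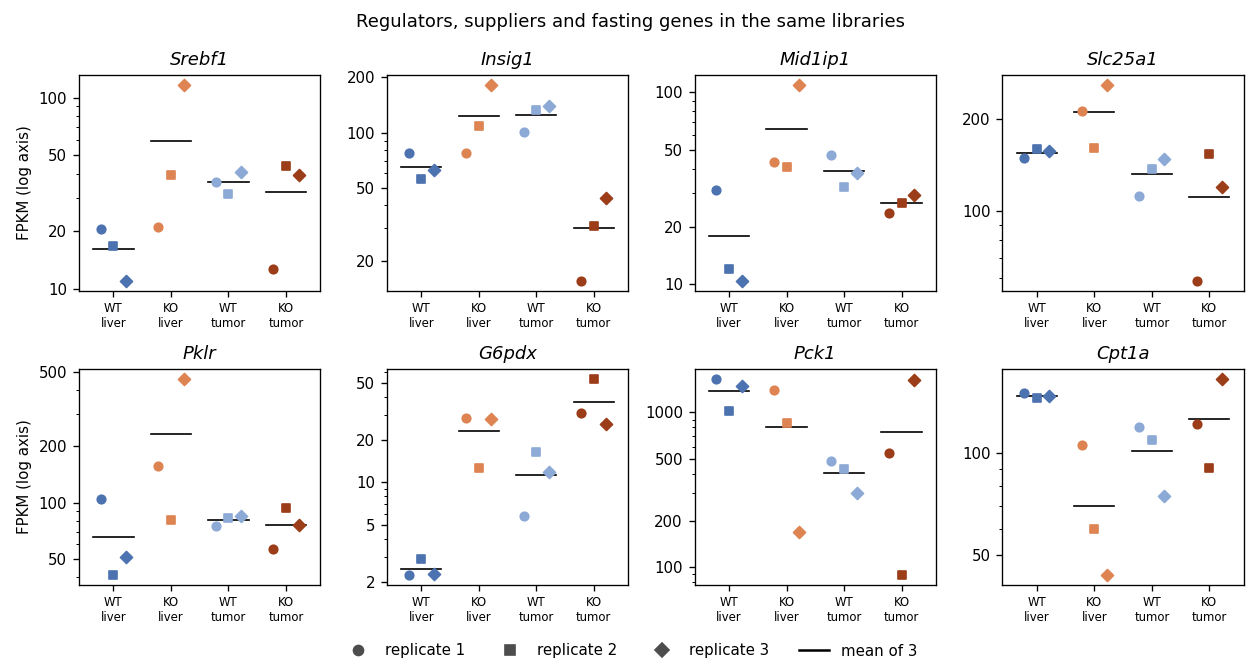
FPKM (log axis) of regulators, suppliers and fasting genes in the 4 groups, with 1 point per library. In KO liver, Srebf1 spans 21.1 to 117 FPKM and Pck1 169 to 1389.8.

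The rows whose profile over the 12 libraries was most like that of the members were ranked by Pearson's r with the mean standardized log2(FPKM + 1) of the 10 genes. Of 11660 other rows, the 5 closest were Acat2 at 0.91, Pgrmc2 and Rabep1 at 0.90, Spata22 at 0.89 and Gamt at 0.88. Acat2, a cytosolic acetyl-CoA acetyltransferase, kept an r of 0.89 without KO liver replicate 3. It read 27.0, 35.2 and 38.3 FPKM in WT liver, 44.4, 33.8 and 66.7 in KO liver, 26.9, 40.9 and 39.3 in WT tumors, and 11.1, 25.0 and 20.5 in KO tumors. The 3 most opposite were Cd47 at -0.90, Slc25a48 at -0.87 and Kif3b at -0.85. Of the pathway genes, Slc25a1 ranked 18 with 0.85. Pklr had 0.76, which fell to 0.44 without KO liver replicate 3. For Srebf1 the r was 0.49, and 0.03 without that library, so its likeness to the members rested on 1 library. These values describe 12 libraries of 4 groups, and the top rows were the extremes of 11660.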

How the data were processed

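The data are 12 poly(A) RNA-seq libraries of mouse liver and liver tumor, 3 for each of 4 groups named by the sample labels. The authors deposited 1 table of FPKM values per library, and the submitters' processing notes name TopHat2 2.1.1, Cufflinks 2.2.1 and the mm10 build without saying how they were run. Which annotation they used is not given in the sources used here. Strand was not kept by the library kit, per the labels' protocols. FPKM divides by transcript length and library size, so values of a gene can be compared between libraries only relative to the rest of each library, and without counts no interval for depth can be given.

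Values were tested as log2(FPKM + 1) with limma 3.58.1 in R 4.3.3 (empirical Bayes with a variance trend, two-sided), on the 11671 rows with an FPKM of at least 1 in at least 3 of the 12 libraries. Benjamini-Hochberg adjustment ran over all tested rows, and a row was called at an adjusted p below 0.05. Each pairwise comparison was fitted on its own 6 libraries and the interaction on all 12. Fold changes on this scale are smaller than the true ones for low values. The model was tested on simulated data. The members and the gene lists were chosen with earlier results of these data known. Of each pathway list, the 3 genes with the smallest unadjusted p in KO against WT liver and in KO against WT tumors, plus 9 fixed genes, of which 1 is not reported here, could be named; others named for a count of at most 5 were chosen after their values were seen. Alternatives changed the pseudocount, filter, scaling, length trend, weights, variance model, replicate block, handling of improbable zeros and the libraries included.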

Additional observations from a re-analysis of the deposited data

Results flagged for a closer look

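Insig1, the SREBP target that retains SREBP in the endoplasmic reticulum, differed between normal liver and tumors in its response to the knockout. The members and the named pathway genes were searched for a call in the interaction test, and only Insig1 was found. Over all rows 2.08% were called in that test. The KO effect in tumors minus that in liver was -2.94 ± 0.52 on the log2 scale (limma, a test of the difference itself over all 12 libraries, adjusted p = 0.0278). The KO effect was 0.83 ± 0.30 in liver and -2.11 ± 0.37 in tumors, and neither was called on its own. The call was lost in 7 of 24 alternatives, with adjusted p up to 0.0818, among them the fits without WT liver replicate 2 or 3, KO liver replicate 2 or 3, or WT tumor replicate 2 or 3.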

How the results depend on the processing

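The number of members called changed with the processing in 4 comparisons. In KO versus WT normal liver it was 0, and 0 to 1 with 1 library left out (1 without KO liver replicate 2), where the median change ran from 0.11 to 1.499. In KO versus WT tumors it was 0, with 1 under array quality weights and 0 to 1 with 1 library left out. In tumor versus normal liver of WT it was 2, with 0 without a filter, 1 at a mean FPKM of at least 5, 1 after rescaling to TPM, 1 in 1 fit of all 12 libraries, 4 under array quality weights, and 1 to 4 with 1 library left out (4 without WT tumor replicate 1). In tumor versus normal liver of KO it was 1, with 0 without a filter, 0 after rescaling to TPM, 4 in 1 fit of all 12 libraries (Acly, Acacb, Me1 and Mlxipl), and 0 to 1 with 1 library left out, the call then falling to Acacb without KO liver replicate 2 and to Me1 without KO tumor replicate 2. The interaction called 0 in all its alternatives, and its median ran from -2.48 to -0.996 with 1 library left out. The cause was not tested.

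Signs turned for small estimates. In KO versus WT normal liver, Acacb was -0.037 at pseudocount 0.1, -0.024 in TPM, -0.00689 after quantile normalization, -0.0284 under array weights and -0.51 to 0.81 with 1 library left out. Mlxipl became 0.020 with the length trend removed and ran from -0.23 to 0.22 with 1 library left out. Elovl6 ran from -0.28 to 1.504, Thrsp from -0.25 to 1.66 and Scd2 from -0.28 to 0.48, and Nr1h3 was -0.026 with the length trend removed. In KO versus WT tumors, Me1 was 0.070 in TPM, 0.0078 under array weights and -0.49 to 0.35 with 1 library left out. The ranges there were -2.05 to 0.082 for Thrsp, -2.59 to 0.093 for the second Scd1 row, -0.65 to 0.20 for Srebf1, -0.29 to 0.067 for Pklr and -0.64 to 0.046 for Slc25a1. Their upper ends are without KO tumor replicate 1. In tumor versus normal liver of WT, Elovl6 was 0.22 in TPM, 0.017 by median-of-ratios scaling, 0.019 after quantile normalization, 0.088 under array weights and -0.34 to 0.23 with 1 library left out, Acly ran from -0.069 to 0.37 and Scd1 from -0.23 to 0.72. In tumor versus normal liver of KO, Pnpla3 ran from -1.01 to 0.20.

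With the replicate number as a block, 2 members (Acacb and Mlxipl) were called in tumor versus normal liver of KO, against 1, and the other member counts did not change. Over all rows the block left 153 calls of 2113 in KO versus WT normal liver, and 0 of 9 in tumors. The labels give no pairing beyond the numbers. Same-numbered libraries deviated from their group means with correlations of -0.28 to 0.02 in the liver comparison and 0.01 to 0.35 in the tumor comparison. Differently numbered libraries were not compared in this way, so these correlations cannot decide whether the numbers pair the samples. The array quality weights gave 235 calls in tumors, 1 fit of all 12 libraries 1017. Across 11291 genes with a transcript length, the KO versus WT liver change correlated with length at a Spearman rho of -0.32; genes are not independent replicates. Depth is unknown, so low values such as those of Pnpla3 in WT liver have no counting error.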
